A study of Mus musculus with 2 samples.

Results

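The genes described here are those of the adult and embryonic globins, of erythroid heme synthesis and of the erythropoietin receptor, 10 genes in all, of which 9 are among the 23284 genes listed in the series. They were chosen by name after the values of Hba-a1 and Hba-a2 in these libraries were known, so their values are given as a description and no test was made of them. The 9 genes with a row in the files were Hba-a1, Hba-a2, Hbb-b1, Hbb-b2, Hbb-bh1, Hba-x, Hbb-y, Alas2 and Epor, and 1 gene had none and was not analysed here. The values come from mice with an experimental chronic myeloid leukemia (CML), whose leukemic stem cells (LSCs) either had or lacked the adapter protein STAP-1.

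There were 2 RNA-seq libraries, 1 from WT and 1 from STAP-1 KO CML LSCs. In both groups, LSK cells (lineage marker negative, Sca-1 and c-Kit positive) from donors on the C57BL/6J background were transduced with a retrovirus that carries human BCR-ABL and green fluorescent protein (GFP). The transduced cells were given to lethally irradiated C57BL/6SJL mice with bone marrow of C57BL/6SJL mice, and GFP+ CD45.2+ LSK cells were sorted 11 days after this first transplantation. In the STAP-1 KO group the donors carried a targeted disruption of Stap1, the mice of the study were 8 to 14 weeks old, and the number of mice behind each library is not given in the sources used here. BCR-ABL was expressed from the retroviral vector and not from its own locus, and the lineage antibodies used to exclude mature cells included Ter119, which marks erythroid cells from the erythroblast onward. With 1 library per genotype there is no replicate error and nothing could be tested, and in the text WT LSCs and STAP-1 KO LSCs each stand for that 1 library.

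Hemoglobin is built from alpha and beta globin chains, each of which holds a heme group. Adult mouse alpha globin is encoded by the copies Hba-a1 and Hba-a2 on chromosome 11, beside the embryonic gene Hba-x, and adult beta globin by a pair of genes on chromosome 7, beside the embryonic genes Hbb-bh1 and Hbb-y. Erythroid cells make their heme through Alas2, the erythroid form of the first enzyme of heme synthesis, and committed erythroid progenitors depend on the erythropoietin receptor Epor, which signals through the kinase JAK2 and the transcription factor STAT5. LSK cells lie upstream of the committed erythroid progenitors.

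The adult globin copies cannot be told apart by most short reads, and the sequences that show this are given first. In GRCm38 (mm10) with GENCODE M21 annotation, Hba-a1 lies at chr11:32283511-32284465 and Hba-a2 at chr11:32296489-32297298, both on the plus strand. Their coding sequences have 429 bases and differ at 1 base, C381T in codon 127, counted from 1 at the A of the start codon with the base of Hba-a1 first. The last 75 coding bases of each copy, which is the length of 1 read and includes the stop codon, are printed with the differing base in capitals, Hba-a1 from chr11:32284317-32284391 and Hba-a2 from chr11:32297134-32297208 on the plus strand.
Hba-a1: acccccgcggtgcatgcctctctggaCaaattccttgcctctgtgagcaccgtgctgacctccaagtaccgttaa
Hba-a2: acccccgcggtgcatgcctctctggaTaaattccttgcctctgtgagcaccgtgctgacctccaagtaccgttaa

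Of the 355 windows of 75 bases in the coding sequence of either alpha copy, 306 (86.2%) were present unchanged in the other. Over the whole transcript, which adds the untranslated ends, 389 of 625 windows of Hba-a1 (62.2%) and 389 of 480 windows of Hba-a2 (81.0%) were shared. The copies also share their promoters, which are identical over the 210 bases compared. The 120 bases before the RefSeq start of Hba-a2 (chr11:32296372-32296491, GRCm38.p6, plus strand) are shown because the same stretch stands before both copies, with the CCAAT box in capitals.
Hba-a2 promoter: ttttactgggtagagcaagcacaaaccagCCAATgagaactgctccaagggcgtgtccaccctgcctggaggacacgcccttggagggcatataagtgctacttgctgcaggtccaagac

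The beta genes on the C57BL/6J reference chromosome are annotated as Hbb-bt and Hbb-bs. The names Hbb-b1 and Hbb-b2 belong to another beta globin haplotype, and the files list them beside a row named Beta-s, an older name of Hbb-bs, whereas Hbb-bt had no row. Which locus the rows Hbb-b1 and Hbb-b2 counted is not given in the sources used here, and no position is printed for them. Hbb-bt and Hbb-bs have coding sequences of 444 bases that differ at T417C in codon 139, and 342 of 370 coding windows of 75 bases (92.4%) were shared. Over the whole transcript, 356 of 629 windows of Hbb-bt (56.6%) and 356 of 554 windows of Hbb-bs (64.3%) were shared. Their last 75 coding bases, on the minus strand at chr7:103812656-103812730 and chr7:103826665-103826739 of GRCm38, are printed in the same way.
Hbb-bt: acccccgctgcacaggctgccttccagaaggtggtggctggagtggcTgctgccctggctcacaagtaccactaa
Hbb-bs: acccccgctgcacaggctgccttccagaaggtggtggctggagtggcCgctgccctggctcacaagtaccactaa

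No window of 75 bases in Hba-x, Hbb-y, Hbb-bh1, Alas2 or Epor was found in another of the globin, Alas2 and Epor transcripts compared. For these genes a value therefore does not depend on how reads were divided among the transcripts compared, whereas for the alpha copies it can, and their sum is given beside them.

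Adult globin transcripts were abundant in both libraries and lower in STAP-1 KO LSCs. The deposited values are FPKM, fragment counts divided by exon length and scaled to library size. Their steps at low values gave an effective depth of 7490000 reads for the WT library and 10470000 reads for the STAP-1 KO library. Intervals in the text are 95% exact intervals on reads estimated from these depths, and they cover counting error only, since the libraries were amplified and reads are not independent molecules.

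The alpha globin copies together had 807 FPKM in WT LSCs and 396 FPKM in STAP-1 KO LSCs, about 2146 and 1455 estimated reads. The sum was 2.04-fold lower in STAP-1 KO LSCs (interval from 1.93-fold to 2.21-fold), so the counting interval includes 2-fold. The beta globin rows Hbb-b1 and Hbb-b2 together had 1328 and 803 FPKM, 1.65-fold lower (interval from 1.59-fold to 1.73-fold). With Hbb-bs added, the beta sum was 2788 FPKM in WT LSCs and 1478 FPKM in STAP-1 KO LSCs, 1.89-fold lower. The rows Hbb-b1 and Hbb-b2 may share a locus with Hbb-bs, which this sum and the values that use it would then count again. Both chains thus stood lower in STAP-1 KO LSCs by between 1.65-fold and 2.04-fold, and the ratio of the alpha sum to the beta sum with Hbb-bs was 0.290 and 0.268. All adult globin rows together made up 0.554% of the summed FPKM of WT LSCs and 0.310% of that of STAP-1 KO LSCs. In bulk RNA, fewer globin-expressing cells and less globin RNA per cell cannot be told apart.

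**Figure D1:**
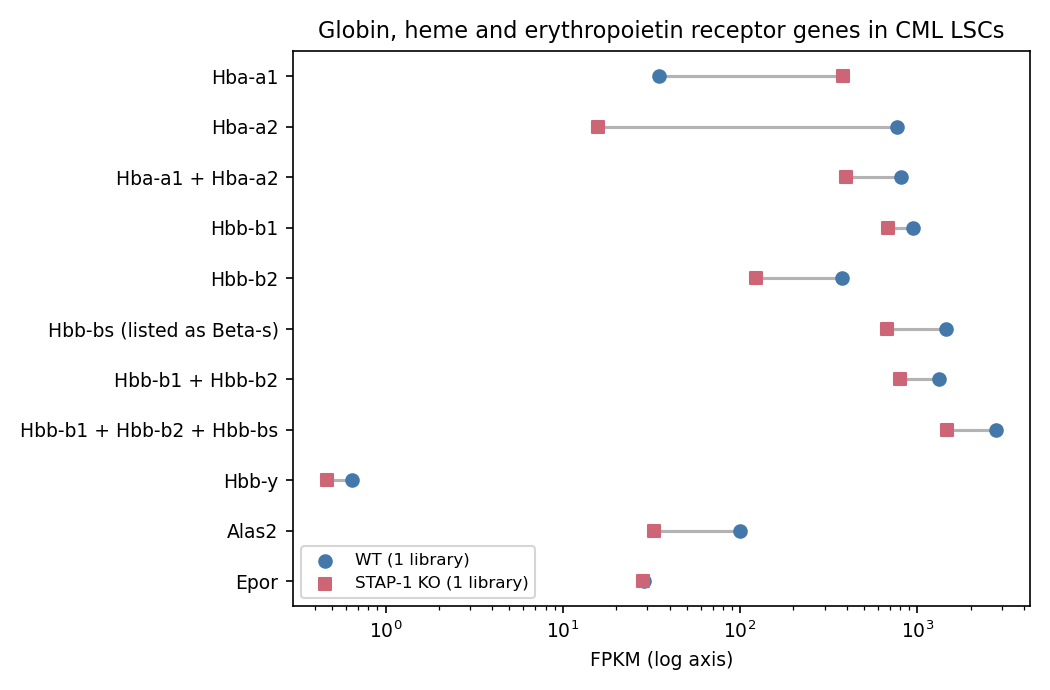
FPKM of each gene and of the summed globin copies, on a log axis, in WT LSCs (blue circles) and STAP-1 KO LSCs (red squares), with a gray line joining the values of a row. Hba-a1 and Hba-a2 lie in opposite directions while their sum is 807 and 396 FPKM, and the Epor symbols overlap at 28.8 and 28.5 FPKM.

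Within the alpha pair, the listed values were exchanged between the libraries. Hba-a1 had 34.8 FPKM in WT LSCs and 380 FPKM in STAP-1 KO LSCs, 10.9-fold higher in the latter. Hba-a2 had 773 and 15.9 FPKM, 48.7-fold lower. Hba-a1 therefore held 4.31% of the alpha sum in WT LSCs and 96.0% in STAP-1 KO LSCs. The larger row was 22.2 times the smaller one in WT LSCs and 23.9 times in STAP-1 KO LSCs, with the names reversed. How reads that match both copies were divided is not given in the sources used here, and whether either copy changed on its own was not tested.

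Among 8 housekeeping genes none was listed at 0, but Gapdh had only 0.391 and 1.03 FPKM and Ppia only 0.758 and 0.543 FPKM, while the other 6 had 33.5 FPKM or more. Low listed values of widely expressed genes were thus also found outside the globins. Copies of the housekeeping genes were not compared. The cause of these low values, and of the smaller alpha globin value of each library, was not tested.

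The beta rows all pointed the same way, in unequal measure. Hbb-b1 had 951 FPKM in WT LSCs and 681 FPKM in STAP-1 KO LSCs, 1.40-fold lower. This ratio lies close to the ratio of the effective depths, so that the estimated reads were nearly equal, 3006 and 3008. Hbb-b2 had 377 and 122 FPKM, 3.08-fold lower, and Hbb-bs had 1460 and 674 FPKM, 2.17-fold lower. Hbb-bs was the largest beta row of WT LSCs with 52.4% of the beta sum, whereas in STAP-1 KO LSCs Hbb-b1 and Hbb-bs held 46.1% and 45.6%. Windows shared among these 3 rows could not be counted, since the loci of Hbb-b1 and Hbb-b2 are not given, and the part of shared reads in their unequal ratios was not tested.

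**Figure D2:**
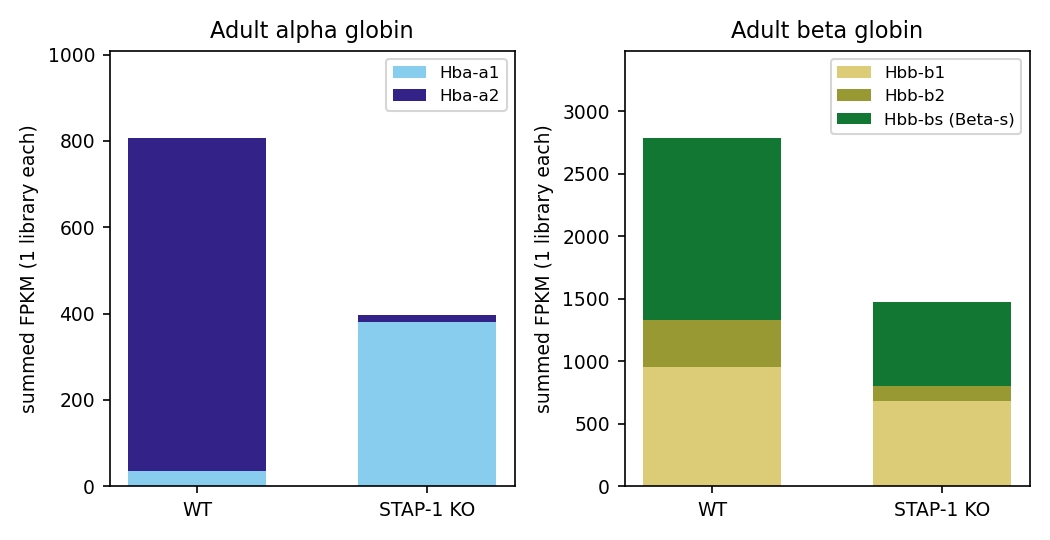
Summed FPKM of the adult alpha globin rows (left) and of the adult beta globin rows (right) in WT and STAP-1 KO LSCs, 1 library per bar, with the share of each row in color. The alpha bars are 807 and 396 FPKM high and change from mostly Hba-a2 to mostly Hba-a1, while each of the beta rows takes part in the lower bar of 1478 FPKM.

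Embryonic globin transcripts were at or near the limit of detection in both libraries. Hba-x, the embryonic alpha-like zeta globin at chr11:32276400-32278116, and Hbb-bh1, an embryonic beta-like globin at chr7:103841637-103843164, were listed at 0 in each library. With these depths, a count of 0 allows up to 1.02 FPKM of Hba-x and 0.996 FPKM of Hbb-bh1 in WT LSCs, and up to 0.729 and 0.713 FPKM in STAP-1 KO LSCs, taken as 3 reads. Hbb-y, the embryonic epsilon-type globin at chr7:103851749-103853216, had 0.649 and 0.465 FPKM, about 2.00 reads in each library. A difference of Hbb-y was not detectable at this depth.

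Of the globin genes outside the list, the theta-type genes Hbq1b and Hbq1a beside the alpha copies had 4.45 and 2.65 FPKM and 0.674 and 0 FPKM in WT and STAP-1 KO LSCs. Hbb-bh2, the muscle globin Mb, the neural globin Ngb and Cygb were listed at 0 in both. The globin signal of these cells was thus of the adult type.

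Alas2, at chrX:150547375-150570638 on the plus strand, had 100.3 FPKM in WT LSCs and 32.8 FPKM in STAP-1 KO LSCs. It was 3.06-fold lower in STAP-1 KO LSCs, a log2 ratio of -1.61 (interval from -1.75 to -1.48). Log2 ratios are log2((STAP-1 KO + 0.1)/(WT + 0.1)), which understates changes of low values. Among all listed genes ordered by FPKM, Alas2 stood at rank 1113 in WT LSCs and 3398 in STAP-1 KO LSCs. The beta sum without Hbb-bs was 13.2 times Alas2 in WT LSCs and 24.5 times in STAP-1 KO LSCs, so the ratio of Alas2 between the libraries was further from 1 than that of the globin sums.

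Alas1, the form of the same enzyme that other cells use, was at 20.1 FPKM in WT LSCs and 58.5 FPKM in STAP-1 KO LSCs, a log2 ratio of 1.54. Alas2 was therefore 4.99 times Alas1 in WT LSCs, and Alas1 was 1.78 times Alas2 in STAP-1 KO LSCs. The sum of both forms was 120.4 and 91.3 FPKM. The order of the erythroid and the general form of the first enzyme was thus reversed between the libraries, while their sum differed by less than either gene.

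None of the 7 genes of the later steps passed 2-fold. Alad, which joins aminolevulinic acid into porphobilinogen, had 93.2 and 129.9 FPKM, and Uros 25.8 and 30.7 FPKM. Urod, the last of the cytosolic steps before Cpox, had 89.4 and 119.2 FPKM. These 3 genes had higher listed values in STAP-1 KO LSCs. The enzymes that finish the pathway had lower ones as deposited. Cpox had 111.5 and 72.1 FPKM, Ppox 44.2 and 30.0 FPKM, and Fech, which puts iron into the porphyrin ring, 143.6 and 76.9 FPKM. When corrected for transcript length and GC content, Cpox was at a log2 ratio of -0.77, Ppox at -0.16 and Fech at -0.01, so the lower value of Fech was not seen relative to genes of its length and GC content. With it Alad was at 0.27, Uros at 0 and Urod at 0.18. Over the 9 genes of heme synthesis the median log2 ratio was 0.09, beside -0.04 over the 10974 genes averaging 1 FPKM or more, and it was -0.01 with the same correction. Of the 9 genes 1 was at least 2-fold lower and 1 at least 2-fold higher, beside 22.9% and 12.3% of the 12507 comparable genes of the libraries.

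**Figure D3:**
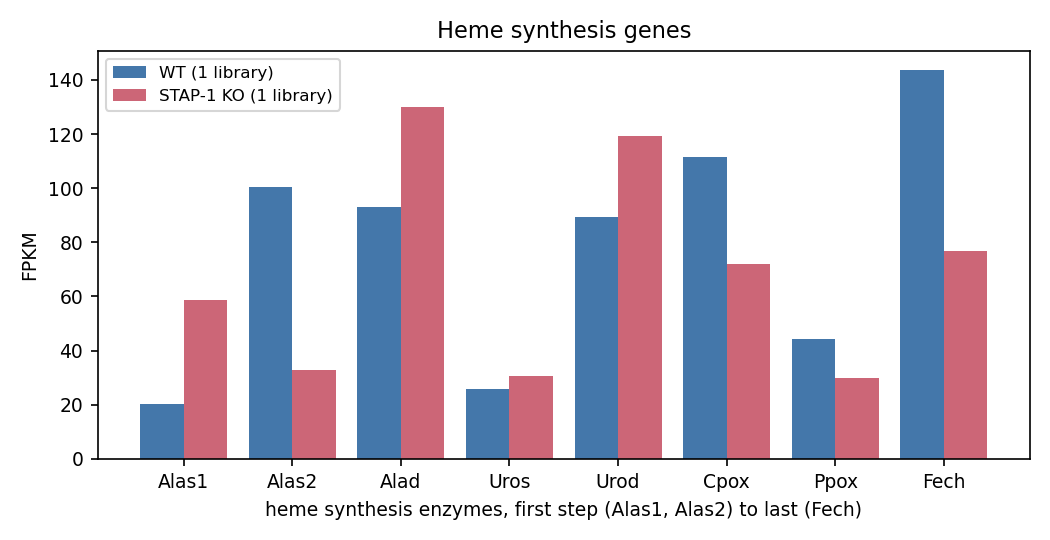
FPKM of 8 heme synthesis genes in WT LSCs (blue bars) and STAP-1 KO LSCs (red bars), in the order of the pathway from left to right. The widest ratios are those of the alternative first enzymes, Alas1 with 20.1 and 58.5 FPKM and Alas2 with 100.3 and 32.8 FPKM, and the last 3 enzymes are lower by less than 2-fold as deposited, but Ppox and Fech are at log2 ratios of only -0.16 and -0.01 when corrected for length and GC content.

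Epor, at chr9:21958897-21963506 on the minus strand, had 28.8 FPKM in WT LSCs and 28.5 FPKM in STAP-1 KO LSCs, about 335 and 464 estimated reads. Its log2 ratio was -0.01 with an interval from -0.22 to 0.19, so a 2-fold difference between these libraries lies outside the counting interval. Among the chosen genes detected, apart from the embryonic Hbb-y, only Epor thus had nearly the same listed values in both libraries. Erythroid genes outside the chosen ones, such as Klf1, also had similar values.

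The order of the levels differed between the libraries. In the WT library it was Hbb-b1, Hba-a2, Hbb-b2, Alas2, Hba-a1, Epor and Hbb-y, and in STAP-1 KO LSCs Hbb-b1, Hba-a1, Hbb-b2, Alas2, Epor, Hba-a2 and Hbb-y. Counting intervals of neighbors in this order overlapped only for Hba-a1 (from 28.0 to 42.7 FPKM) and Epor (from 25.8 to 32.1 FPKM) in WT LSCs and for Alas2 (from 30.3 to 35.5 FPKM) and Epor (from 26.0 to 31.2 FPKM) in STAP-1 KO LSCs.

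Of the 9 genes with a row, 7 had at least 0.1 FPKM in both libraries and could be compared. Hba-a2, Hbb-b2 and Alas2 were at least 2-fold lower in STAP-1 KO LSCs, Hba-a1 was at least 2-fold higher, and Hbb-b1, Hbb-y and Epor were not past 2-fold. Over all 12507 comparable genes, 22.9% were at least 2-fold lower and 12.3% at least 2-fold higher. The genes were chosen partly by this difference, so nothing is read from their count. The nearest gene inside the cut-off was Alas2 at 3.06-fold and the nearest outside was Hbb-b1 at 1.40-fold. The median log2 ratio of the 6 genes averaging 1 FPKM or more was -1.05, with the alpha copies counted as separate genes.

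The intracellular partners of Epor were described through a list of 22 genes of erythropoietin signaling and its response. Of 21 comparable genes, 11 were at least 2-fold lower and 1 at least 2-fold higher in STAP-1 KO LSCs, beside 22.9% and 12.3% of all genes, with a median log2 ratio of -1.04 over 20 genes. Jak2, the kinase bound to the receptor, had 48.2 and 13.1 FPKM in WT and STAP-1 KO LSCs. The scaffold gene Gab2 had 52.3 and 3.66 FPKM, the largest ratio of the list. Sh2b3, which encodes the adaptor LNK that restrains JAK2, had 35.0 and 7.86 FPKM. The STAT5 target genes Cish, with 432 and 133 FPKM, and Socs1, with 78.2 and 24.1 FPKM, encode inhibitors of the same pathway. Both components and inhibitors of the pathway were thus among the lower genes while Epor itself was not. The gene of the ligand, Epo, was listed at 0 in both libraries. These genes also act downstream of other cytokine receptors and are not particular to erythroid cells.

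Transcription factors of erythroid and globin regulation showed no common direction. Of 20 comparable genes, 3 were at least 2-fold lower and 2 at least 2-fold higher, shares below the 22.9% and 12.3% over all genes, with a median log2 ratio of -0.17. Gata2, which is expressed in stem and early progenitor cells and in mast cells, had 409 and 55.2 FPKM. Tal1 had 17.9 and 6.94 FPKM and Ikzf1, a lymphoid and globin switching regulator, 46.6 and 11.9 FPKM. Lmo2, which bridges the GATA and TAL1 complex, had 82.6 and 227 FPKM, and Nfe2, whose product binds the globin locus control regions, 106.5 and 236 FPKM. Of the cell type markers listed for erythroid cells, Klf1, the activator of adult beta globin, had 103 and 108 FPKM, and Gata1 had 187 and 96.1 FPKM.

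Surface and enzyme genes of early erythroid progenitors included 5 of 12 that were at least 2-fold lower and none that was at least 2-fold higher, beside 22.9% and 12.3% of all genes, with a median log2 ratio of -0.26. Car1, an erythroid carbonic anhydrase, had 250.2 and 88.4 FPKM, and Ermap 52.3 and 18.1 FPKM. The metallothionein genes Mt1 (1047 and 478 FPKM) and Mt2 (200.1 and 98.0 FPKM) and Sphk1 (40.8 and 19.7 FPKM) are expressed in many other cell types as well. Of the 12 genes 3 had higher listed values in STAP-1 KO LSCs, among them the carbonic anhydrase gene Car2, the most abundant after Mt1 in WT LSCs, with 698 and 751 FPKM.

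Genes of the red cell membrane and of late erythroid differentiation included more lower than higher genes. Of 26 comparable genes, 10 were at least 2-fold lower and none was at least 2-fold higher in STAP-1 KO LSCs, beside 22.9% and 12.3% of all genes, with a median log2 ratio of -0.90. The summed level of the list went the other way, 2563 FPKM in WT LSCs and 2897 FPKM in STAP-1 KO LSCs. The sum rests mostly on the antioxidant genes Gpx1, with 1365 and 1866 FPKM, and Prdx2, with 407 and 563 FPKM, which other cells express as well. Sptb, whose spectrin product lines the red cell membrane, was at a low level in both libraries, 5.64 and 0.328 FPKM. Slc4a1, the anion exchanger band 3, had 48.3 and 12.4 FPKM, Tmcc2 36.3 and 7.88 FPKM, and Fam46c 26.4 and 5.67 FPKM. Transcripts of defining erythroid genes were thus measured in both libraries of cells sorted as negative for Ter119.

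Iron uptake, heme transport and heme turnover genes showed a median log2 ratio of -0.05 over 22 genes (0.05 with both libraries scaled to the same total FPKM), 3 at least 2-fold lower and 1 at least 2-fold higher, both shares below the 22.9% and 12.3% over all genes. Hmox1, which breaks heme down, had 30.1 and 8.80 FPKM, the mitochondrial transporter gene Abcb10 39.6 and 16.8 FPKM, and the ferrireductase gene Steap3 30.2 and 14.4 FPKM. Hmox2, the constitutive form of the same enzyme as Hmox1, had 58.2 and 111.0 FPKM. Heme handling as a whole thus stood near the median of all genes, unlike Alas2.

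**Figure D4:**
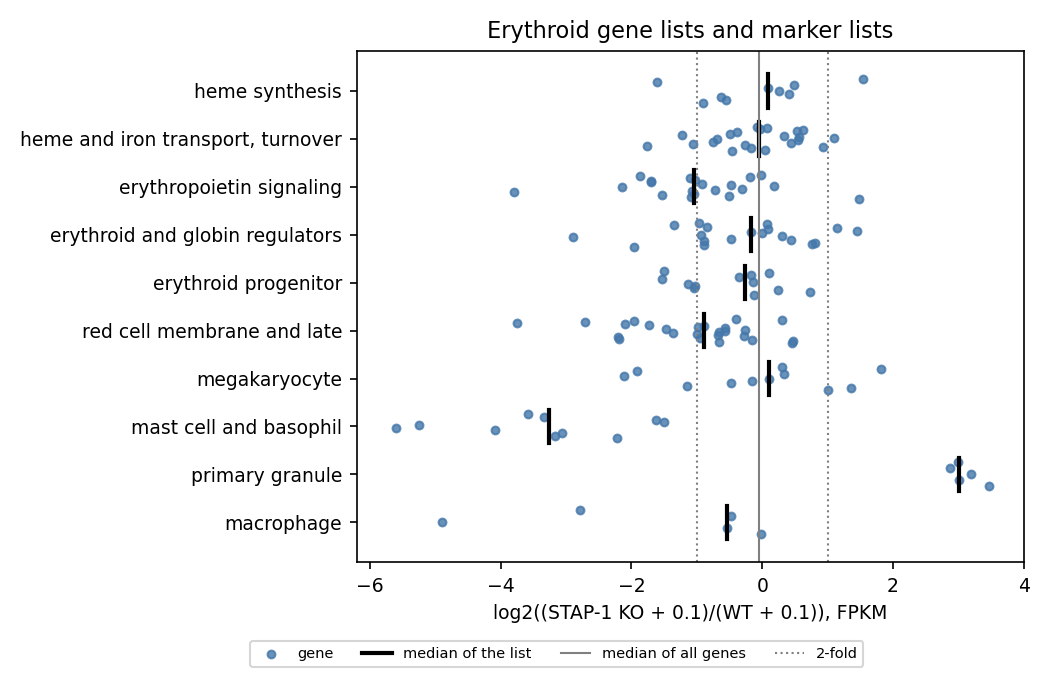
Log2 ratio of the STAP-1 KO to the WT library for each gene averaging 1 FPKM or more (points) in the erythroid lists and in marker lists of other cells, with list medians (black bars), the median of all genes (gray line) and 2-fold (dotted lines). Erythropoietin signaling and red cell genes lie mostly left of the line at -0.04, the mast cell list lies at a median of -3.26 and the primary granule list at 3.01.

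The ratio of the libraries moved with transcript length, which differs among these genes. In 20 bins of length, the median log2 ratio was 0.48 in the bin of the shortest transcripts, which holds the adult globins, and -0.998 in the bin of the longest. The globin sums, with log2 ratios of -1.03 for alpha and -0.73 for beta, thus lay below the median of genes of their own length, and less that median they were -1.51 and -1.21. In the same way Hbb-b1 went from -0.48 to -0.96 and Hbb-b2 from -1.62 to -2.10. These values are corrected for length alone. With GC content corrected as well, Hba-a1 went from 3.45 to 3.26 and Hba-a2 from -5.60 to -5.78. Both shifts are smaller than that of the alpha sum with length alone, and the sum itself was not corrected for GC content. Alas2 was at -1.85 after the correction for length and GC content, further from 0 than before. The late erythroid gene with the lowest ratio, Sptb, has a long transcript. After the correction the median log2 ratio of the late list was -0.84, that of the erythropoietin signaling list -0.66 and that of the regulator list 0.06.

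**Figure D5:**
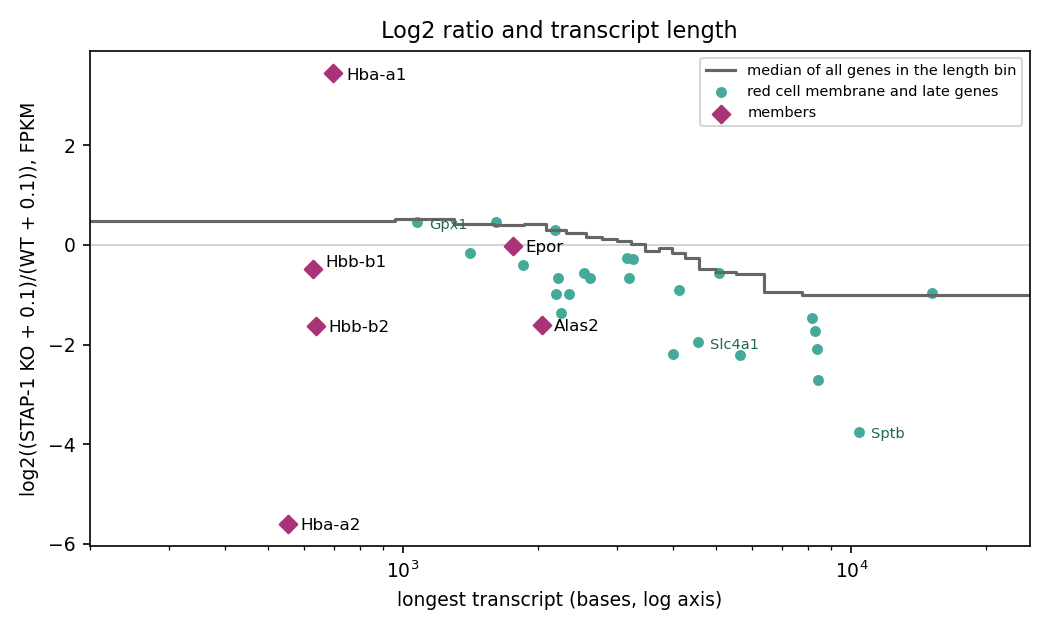
Log2 ratio against the length of the longest GENCODE transcript (log axis) for the genes averaging 1 FPKM or more (purple diamonds) and for late erythroid genes (green points), with the median of all genes per length bin (gray line). Hbb-b1 and Hbb-b2 are drawn at the RefSeq lengths of Hbb-bt and Hbb-bs (630 and 639 bases), and apart from Hba-a1 the diamonds lie below the gray line, which runs from 0.48 to -0.998.

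Genes of other cell types also differed between the same libraries, and their counts stand beside the 22.9% lower and 12.3% higher of all comparable genes. Of 10 comparable mast cell and basophil genes of a list of 12, all 10 were at least 2-fold lower in STAP-1 KO LSCs. Their summed level was 51688 FPKM in WT LSCs and 5284 FPKM in STAP-1 KO LSCs, with Cpa3 (17984 and 1774 FPKM) and Cma1 (13924 and 1168 FPKM) the most abundant. Mrgprb1 was listed at 0 in WT LSCs and Mrgprb2 in STAP-1 KO LSCs. All 5 primary granule genes, which mark neutrophil precursors, were at least 2-fold higher, with sums of 564 and 4623 FPKM. Macrophage genes summed to 57.7 and 10.9 FPKM, with 3 of 8 at least 2-fold lower, none at least 2-fold higher and Siglec1 at 0 in WT LSCs. Of 13 comparable megakaryocyte genes 3 were at least 2-fold lower and 4 at least 2-fold higher, with sums of 236 and 158 FPKM and Gp6 at 0 in WT LSCs. Of 8 lymphoid genes, 3 were at 0 in both, among them Ebf1 and Pax5, Cd79a was at 0 in WT LSCs, 2 of 3 comparable genes were at least 2-fold higher, and the sums were 6.27 and 24.1 FPKM. The part of any of these cell types in the globin and Alas2 values was not tested.

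The targeted gene Stap1 had 62.0 FPKM in WT LSCs and 0.309 FPKM in STAP-1 KO LSCs. Of the antigens of the sort, Kit had 468 and 30.1 FPKM, Ly6a, which encodes Sca-1, 285 and 106 FPKM, and Ptprc 107 and 38.2 FPKM. The lineage antigen genes Cd3e, Cd8a and Itgam were between 0.132 and 1.82 FPKM in both libraries. The part of the lower Kit level of STAP-1 KO LSCs in the erythroid values was not tested.

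The promoter windows of RefSeq, 250 bases before to 50 bases after the start, were searched for motifs of erythroid factors on both strands. The GATA motif AGATAA or TGATAA was present in 18.6% of 32851 promoters, CCNCNCCC, which includes sites of KLF1, in 49.5%, and CCAAT in 37.4%. The GATA motif was found once in the promoters of Hba-x, Hba-a1, Hba-a2, Hbb-bs, Hbb-y, Alas2 and Epor and not in that of Hbb-bt. CCNCNCCC was found 4 times each, with overlaps, in Alas2 and Epor, once each in Hba-x, Hbb-bt and Hbb-bs, and not in Hba-a1, Hba-a2 or Hbb-y. CCAAT was found in the adult globin promoters and in that of Hbb-y, but not in Hba-x, Alas2 or Epor. These matches describe the sequence of the window and say nothing of binding.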

How the data were processed

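RNA-seq was available for 1 WT and 1 STAP-1 KO library of sorted CML LSCs. The authors aligned single reads of 75 bases against mm10 (TopHat2 2.0.13, Bowtie2 2.2.3) and deposited the FPKM values of Cuffnorm (Cufflinks 2.2.1). The submitters' processing notes give SAMtools 0.1.19, whereas the methods name a later version. The annotation, the handling of reads that map to several places and the total reads are not given in the sources used here. The methods name an RNeasy Mini kit and the labels a miRNeasy kit.

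Ratios used a pseudocount of 0.1 FPKM, and genes with at least 0.1 FPKM in both libraries were compared at 2-fold in Python 3.11.15 (scipy 1.17.1, pandas 2.3.3, numpy 2.4.6). Symbols were matched to GENCODE M21 and RefSeq for names, lengths and sequences (20911 as written, 1901 through an older symbol, 472 unmatched). Among genes with 1 transcript, low values fell within 0.01 of a whole read in 47.2% of 316 WT and 48.7% of 392 STAP-1 KO values, which gave the effective depths, with 208 bases taken off each transcript. These depths can include scaling by Cuffnorm. Exact binomial intervals of ratios and exact Poisson intervals of levels rest on them. For Hbb-b1 and Hbb-b2, the lengths of Hbb-bt and Hbb-bs were used, and globin lengths for reads came from RefSeq. The computations were tested on simulated data.

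Named are the chosen genes, further globins, sorting antigens, Stap1, all heme synthesis genes and, of each other list, up to 5 genes that differed most in log2 ratio, taken with a pseudocount of 1 FPKM, among those with a mean of at least 1 FPKM. Further genes (Klf1, Gata1, Epo, Car2, Gpx1, Prdx2, the housekeeping genes and list genes at 0) were chosen after their values were seen. The genes and the lists were chosen with earlier results of these data known. A gene of the chosen list and several genes that this rule names are not reported here, though list counts and medians include the latter. Alternatives changed the pseudocount, scaling, floor, fold cut-off, length and GC correction, summed copies and minimum mean.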

Additional observations from a re-analysis of the deposited data

How the results depend on the processing

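No paired analysis was possible because each genotype had 1 library. Of 57 alternatives for the chosen genes and sums, 48 stayed within the counting interval, and 2 changed the sign, both of Epor (0.03 and 0.09 under other scalings). Scaling each library to the same total FPKM moved the median log2 ratio of all genes by 0.10 and gave -0.93 for the alpha sum, -0.62 for the beta sum and -0.38 for Hbb-b1. Adding Hbb-bs gave -0.92 for the beta sum, and the correction for length and GC content gave -1.85 for Alas2. A correction for length alone, added after seeing the data because Hbb-b1 and Hbb-b2 have no matched locus for GC content, gave -1.51 for the alpha sum, -1.21 for the beta sum, -0.96 for Hbb-b1 and -2.10 for Hbb-b2. The alpha copies do have GC values, and the correction for both moved them less, to 3.26 for Hba-a1 and -5.78 for Hba-a2. A 4-fold cut-off left 1 gene lower, and counting copies as 1 summed gene left 0 higher. Of 79 alternatives for list medians, 71 stayed within the interval and 3 changed the sign. Depth limits what can be said of the embryonic globins, Hbq1a and other genes at or near 0, such as Cd79a, Cd8a, Gp6 and Efcab9. With 1 library per genotype neither variation between mice nor the sort can be told apart from the genotype.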

Other observations

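The genes next to the globin clusters were read in the same libraries. Before the alpha cluster on chromosome 11, Nprl3, whose introns hold the alpha globin enhancers, had 18.6 FPKM in WT LSCs and 11.2 FPKM in STAP-1 KO LSCs, Mpg had 11.9 and 8.76 FPKM, and Rhbdf1 had 1.03 FPKM in WT LSCs and was 2.93-fold lower in STAP-1 KO LSCs. After the cluster, Sh3pxd2b had 3.53 and 0.0793 FPKM, Ubtd2 2.41 and 3.79 FPKM, and Efcab9 0 and 0.171 FPKM. On chromosome 7, the 6 olfactory receptor genes that flank the beta cluster were listed at 0 in both libraries. The abundant transcripts of both regions in these libraries were thus those of the adult globin genes.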
